A study of Brassica napus with 18 samples.

Results

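Chromosome A09 and the first part of chromosome C09 of oilseed rape (Brassica napus) were described gene by gene along their length in shoot apices of 6 accessions. The members were all gene models whose identifier begins with BnaA09T and those beginning with BnaC09T whose gene number is 3000 or below. The gene number is the running number in the identifier, which orders the gene models along the chromosome, so that positions are given as gene numbers and not as base pairs. The rule took 7611 gene models on A09 and 3205 on C09, 10816 of the 107233 in the deposited table. Of these, 598 carry a second model number after a dot, 8137 had at least 1 count in the 18 libraries, and 6090 (4407 on A09 and 1683 on C09) passed the filter on low counts and were tested.

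Brassica napus is an allotetraploid that joined the A genome of a Brassica rapa ancestor with the C genome of a Brassica oleracea ancestor. Most genes therefore have an A and a C copy, called homoeologues, on chromosomes that still share stretches of common gene order, and the beginnings of A09 and C09 are known as such a pair. In rapeseed a stretch of one chromosome can be lost and its place taken by a further copy of the related stretch, which is known as homoeologous exchange. DNA was not analysed here, and no table that pairs A with C copies was used, so the values below are RNA levels of each chromosome only, and whether such exchanges had a part in them was not tested.

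Haplotype 1 of the gene BnaC3.LFY is carried by R5044, R5159 and R5161, and haplotype 2 by R4168, R4210 and R4817. The gene is the C03 copy of LEAFY, which encodes a regulator that turns meristems into flowers, and lies on none of the chromosomes described. All plants grew in the field without a stated treatment, and each accession gave 3 poly(A)-selected libraries of shoot apices, the tissue that holds the meristem and the youngest leaves or flowers. Each haplotype is represented by 3 different accessions, so the genetic background is part of every haplotype comparison and the haplotype cannot be told apart from it. The labels do not say that the 3 libraries came from separate plants, so the spread between them, and every p-value that rests on it, may be technical.

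Libraries held 21960992 to 41459636 counts, of which 2170473 to 4132420 fell on the members. Levels are given as CPM, a gene's share of all counts of its library on the usual scale, and are not divided by gene length. The files pair no gene names with the identifiers, so markers of the tissue could not be checked. No library pair was identical, but library 3 of R5044 was closest to a mixture of libraries 1 and 2 of that accession (54.3% library 1, chi-square per degree of freedom 5.4, against 13.59 and 18.6 for either library alone). Library 3 of R4817 was likewise closest to a mixture with 47.7% of library 1 (4.48, against 50.2 and 54.99). Library 3 of R5161 was also closer to a mixture (29.6% library 1, 9.73, against 28.25 and 21.71), and so was that of R4210 (70.3% library 1, 10.19, against 13.31 and 21.15). All were kept as samples, and the counts of calls were repeated without each library in turn and without library 3 of both R5044 and R4817.

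The balance between the 2 chromosomes leaned furthest to A09 in R5161 and least in R4168. Counts of A09 made up 82.0, 81.6 and 81.6% of the counts of A09 plus C09 in the 3 libraries of R5161, 78.5, 74.4 and 76.5% in R5044 and 68.1, 66.96 and 68.3% in R5159. In the haplotype 2 accessions the A share was 65.4, 62.2 and 62.6% in R4168, 76.3, 75.5 and 75.9% in R4210 and 68.9, 65.6 and 67.2% in R4817. Each haplotype thus held accessions with a high and accessions with a low A share, and the ranges overlapped. The mean was 75.3% ± 7.02 in haplotype 1 and 68.8% ± 6.40 in haplotype 2 (SD over accessions, n = 3 each). A two-sided exact permutation test of 3 against 3 accessions gave p = 0.2, where 0.1 is the smallest p that this design allows.

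The levels of the 2 chromosomes moved in opposite directions across accessions while their sum hardly moved. A09 summed to 75738 ± 3029 CPM in R5044, 69042 ± 1313 in R5159, 80818 ± 1556 in R5161, 64453 ± 201 in R4168, 74296 ± 615 in R4210 and 66522 ± 408 in R4817 (SD, n = 3 libraries each). The members on C09 summed to 23324 ± 1731, 32785 ± 657, 18093 ± 603, 37262 ± 2676, 23600 ± 378 and 32479 ± 2260 CPM in the same order. The accession with the highest C09 level was therefore the one with the lowest A09 level, and the other way round. The C09 lead of R4168 over R5159 and R4817 rested on 1 gene model, at gene number 497. That gene model had a mean of 7301 CPM in R4168, 1749 in R5159 and 2417 in R4817. It is included in the C09 sums given here and in the sum of both chromosomes. The highest accession exceeded the lowest 1.25-fold on A09 and 2.06-fold on C09, but only 1.04-fold in the sum of both (97896 to 101826 CPM). As CPM are shares of a library, these levels cannot tell fewer expressing cells from less RNA per cell. The haplotype means were not separated beyond the spread between accessions on either chromosome: 75199 ± 5906 CPM in haplotype 1 and 68424 ± 5190 in haplotype 2 on A09 (exact p = 0.2), and 24734 ± 7447 and 31113 ± 6932 on C09 (exact p = 0.4).

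**Figure D1:**
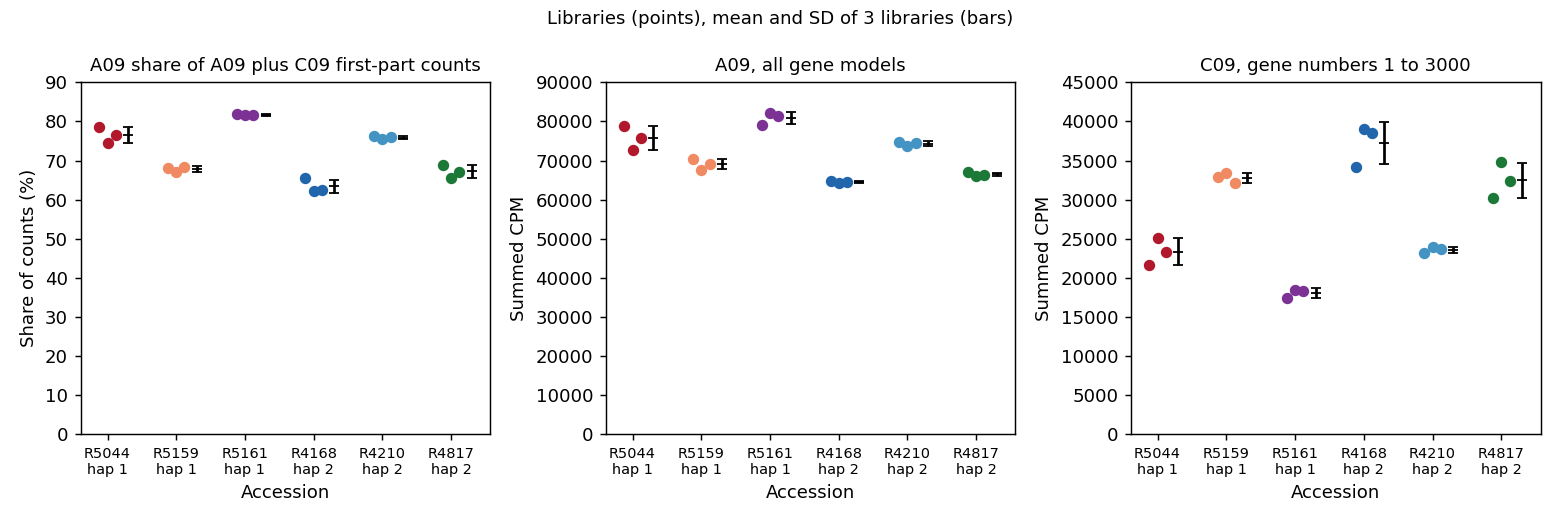
Share of A09 in the counts of A09 plus the first part of C09 (percent, left), and summed CPM of A09 (middle) and of C09 gene numbers 1 to 3000 (right), by accession. Points are libraries and bars are the mean and SD of 3 libraries; R5161 has the highest A share at 81.7% and R4168 the lowest at 63.4%.

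Haplotype calls were no more frequent on these chromosomes than elsewhere. With the 3 libraries of an accession summed and the accession as the replicate, edgeR's quasi-likelihood test with Benjamini-Hochberg adjustment called 460 of 4410 A09 genes (10.4%), 216 higher and 244 lower in haplotype 1, against 13.7% of all genes tested. On C09 it called 132 of 1612 genes (8.19%), 50 higher and 82 lower. Over all genes 6.13% were higher and 7.57% lower, so the members' shares lay below the background in both directions on both chromosomes. These counts depend on single accessions: the 592 calls fell to 21 without R4210, to 350 without R4168 and to 148, 213, 196 and 158 without R5044, R5159, R5161 and R4817. DESeq2 on the same sums called 1729.

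The contrast of accession means, which rests on the spread between libraries and speaks of these 6 accessions only, called 2711 of 4407 A09 genes (61.5%) and 1018 of 1683 C09 genes (60.5%), against 62.5% of all genes. On A09 1410 genes were higher in haplotype 1 (32%, background 29.5%) and 1301 lower (29.5%, background 33%). On C09 360 genes were higher (21.4%) and 658 lower (39.1%), so A09 leaned to higher and C09 to lower calls than the background. An F test over the 6 accessions, from the same fit, found a difference in at least 1 accession for 3150 A09 genes (71.5%) and for 1460 C09 genes (86.7%), against 73.2% of all genes. C09 thus differed more often among accessions than the background, and A09 did not.

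The split of the variation also differed between the chromosomes. For log2(CPM + 0.1) of the tested C09 genes, 21.5% of the squared deviations came from the haplotypes, 71.6% from accessions that share a haplotype and 6.87% from the libraries within accessions. Over all 58143 tested genes the parts were 39.6, 45.1 and 15.4%. On A09 they were 34.6, 49.1 and 16.3%. The part between accessions was 76.9% for C09 gene numbers 1 to 1600 and 42.6% for 1601 to 3000, so that only the first stretch exceeded all genes. On A09 it was 57.3% for gene numbers 1 to 1500 and 43.4% above.

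The genes with the largest fold changes between haplotypes lay elsewhere, at gene numbers 6296, 6348, 2769 and 4388 of A09. By rule, 4 members are named, the 2 most raised and the 2 most lowered in haplotype 1 among the accession-level calls with a mean of at least 1 CPM. BnaA09T0629600ZS had 49.02 to 115 CPM (median 62.1) in the 9 haplotype 1 libraries and 0 to 0.0911 CPM (median 0) in the 9 haplotype 2 libraries, with no overlap. Its 19810 counts in haplotype 1 stood against 3 in haplotype 2, a ratio of 5217 with a 95% counting interval of 1785 to 25302 that covers counting error only, and the adjusted p of edgeR's quasi-likelihood test was 0.00973. BnaA09T0634800ZS had 119 to 191 CPM (median 156) in haplotype 1 and 0 to 0.630 CPM (median 0) in haplotype 2, also without overlap (log2 fold change 9.70, SE 1.61, adjusted p = 0.0229 by the same test). This call was lost with R5044, R5159, R5161, R4168 or R4210 left out (adjusted p from 0.0552 to 0.061 by the same test) and not without R4817. The file gives no names or functions for these gene models.

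BnaA09T0276900ZS had no count in the 9 haplotype 1 libraries and 0 to 7.72 CPM (median 3.23, 880 counts) in haplotype 2, which makes it at least 371-fold lower in haplotype 1 against a floor of 3 counts over the group (edgeR's quasi-likelihood test, adjusted p = 0.0151; 0.0627 without R4210 and 0.0514 without R4817). BnaA09T0438800ZS likewise had no count in haplotype 1 and 0 to 8.81 CPM (median 3.31, 888 counts) in haplotype 2, at least 375-fold lower in haplotype 1 (adjusted p = 0.0364 by the same test). That call was lost with any accession but R4817 left out, with adjusted p from 0.0715 to 0.113. Both were at 0 in 1 or 2 of the haplotype 2 libraries, so the groups touched at 0.

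Along the chromosomes, the accessions differed in runs of neighbouring windows. In each window of 100 gene numbers that held 15 or more tested genes, the difference of log2(CPM + 0.1) from the median of the other 5 accessions was taken per gene, and its median over the window's genes was centred on that of all chromosome genes. A window was called shifted in an accession when all 3 libraries lay at least 0.5 to the same side. Over all chromosomes 343 of 5820 windows were shifted (5.89%), but 74 of 180 on C09 (41.1%, 35 higher and 39 lower) and 41 of 420 on A09 (9.76%, 25 higher and 16 lower). The A09 count fell to 23 with a pseudocount of 1 and to 10 with a threshold of 1. Where 3 accessions are high and 3 are low, the median of the other 5 lies in one of the sets, so a shift there states a side and not a departure from a normal level.

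All C09 shifts lay at gene numbers 1 to 1600. From 1601 to 3000 no window was shifted in any accession, although 14 windows were examined there. On A09 the shifts lay at 101 to 1400 and at 6501 to 7200, and none lay at 1401 to 6500. The median differences were up to 4.28 higher (R4817, C09) and down to -6.20 (R4168, A09).

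**Figure D2:**
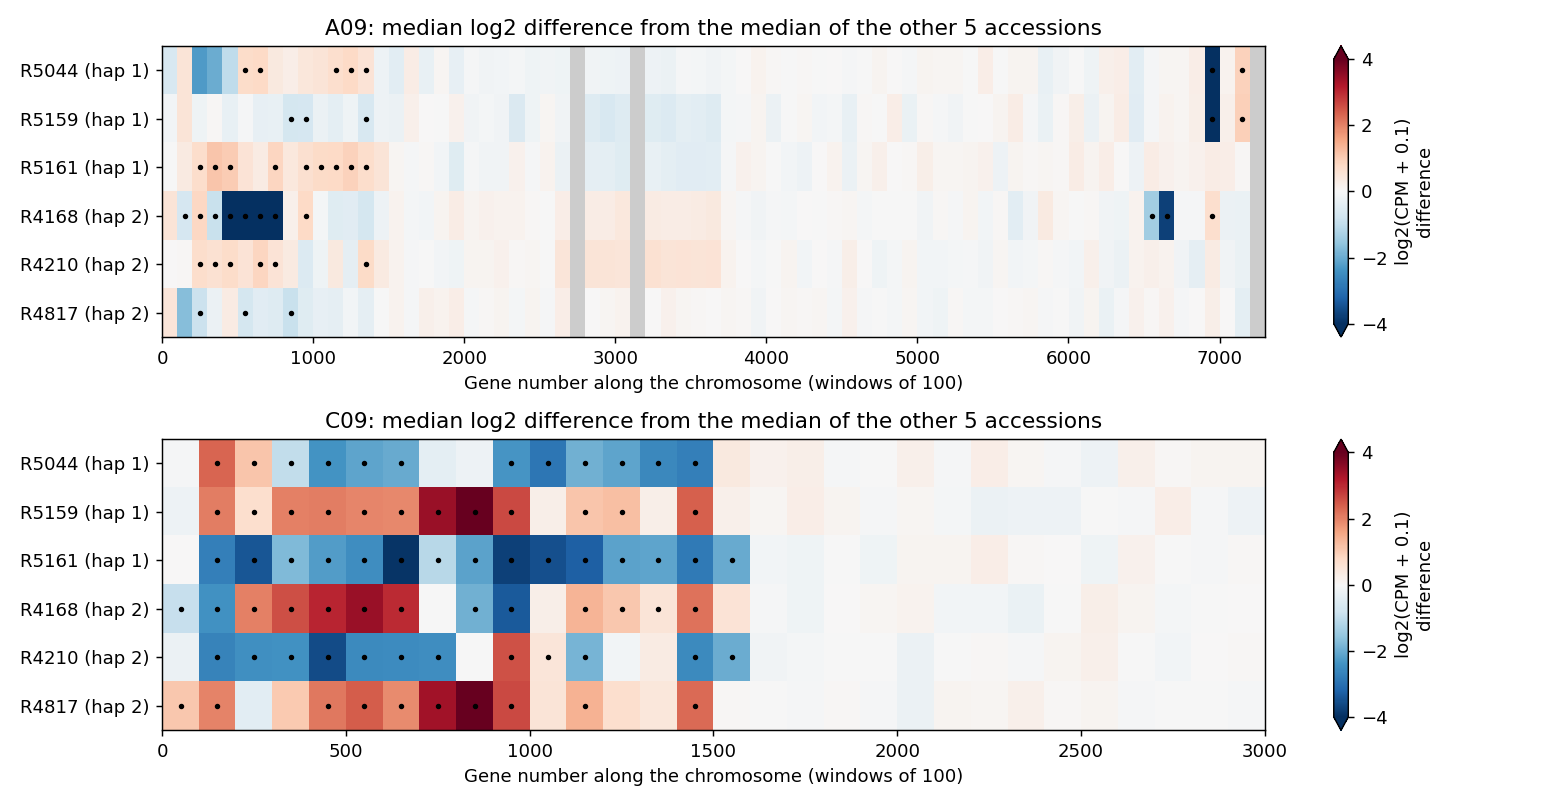
Median log2(CPM + 0.1) difference of each accession from the median of the other 5 in windows of 100 gene numbers along A09 (top) and C09 (bottom), red higher and blue lower, grey where under 15 genes were tested; dots mark shifted windows. The differences fill C09 up to 1600 and A09 up to 1400, with short runs near the end of A09, and the rest of both chromosomes is close to 0.

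On C09 the 6 accessions formed a high and a low set over gene numbers 101 to 1600, with 3 accessions each at most positions. The 891 tested genes there, with the untested ones, summed to 4834, 7514 and 6146 CPM in R5044, to 16886, 17774 and 16502 in R5159 and to 2138, 2176 and 2222 in R5161. In the haplotype 2 accessions they summed to 19803, 24056 and 23709 CPM in R4168, to 6349, 6994 and 6676 in R4210 and to 16219, 16863 and 16619 in R4817. R5044, R5161 and R4210 were thus low and R5159, R4168 and R4817 high, without overlap, and both sets held both haplotypes. Genes at 1 CPM or more numbered 408 ± 5.57 in R5044, 692 ± 5.29 in R5159, 245 ± 4.04 in R5161, 610 ± 3.46 in R4168, 393 ± 6.11 in R4210 and 708 ± 51.2 in R4817 (SD, n = 3). The lower sums therefore went with fewer genes above that level and not only with lower levels of a few.

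The low stretches did not share their borders. R5161 was lower in all 15 windows from 101 to 1600. R4210 was lower at 101 to 800, 1101 to 1200 and 1401 to 1600, and higher at 901 to 1100. R5044 was higher at 101 to 300 and lower at 301 to 700 and 901 to 1500, and in the window 1501 to 1600 it had 774 ± 6.55 CPM, close to the 787 to 810 CPM of R5159, R4168 and R4817, against 233 ± 5.53 in R5161 and 265 ± 9.10 in R4210. R4168, high over most of the stretch, was lower at 1 to 200 and 801 to 1000.

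Counting genes gave a second view of the C09 stretches, with no baseline between sets. A window was called depleted in an accession when its number of genes at 1 CPM or more was at most 60% of that in the accession with the most, a rule added after the data were seen, and 3.25% of all windows met it. On C09 43 of 180 did: 12 in R5044, 15 in R5161, 5 in R4168, 11 in R4210 and 0 in R5159 and R4817. All 39 lower shifts on C09 were among the 43, and the other 4 were R5044 at 701 to 900, R4168 at 701 to 800 and R4210 at 801 to 900. The deepest was the window 801 to 900, with 5.0 genes in R5161 and 8.0 in R4168, against 48.7 in R5159 and 49.7 in R4817. On A09 20 of 390 met it, 4 of them in R4168 at 401 to 800. Only 8 of the 16 lower shifts on A09 were depleted, and those of R4817 at 201 to 300, 501 to 600 and 801 to 900, of R5159 at 801 to 1000 and 1301 to 1400 and of R4168 at 101 to 200 and 301 to 400 were not. A further 12 lay in 3 windows between 3301 and 3700, where the 401 gene models summed to only 47 to 201 CPM in a library. There the genes at 1 CPM or more numbered 21, 55 and 80 in the libraries of R4168 and 24, 3 and 41 in those of R5161, so that libraries of an accession differed as widely as accessions did.

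**Figure D3:**
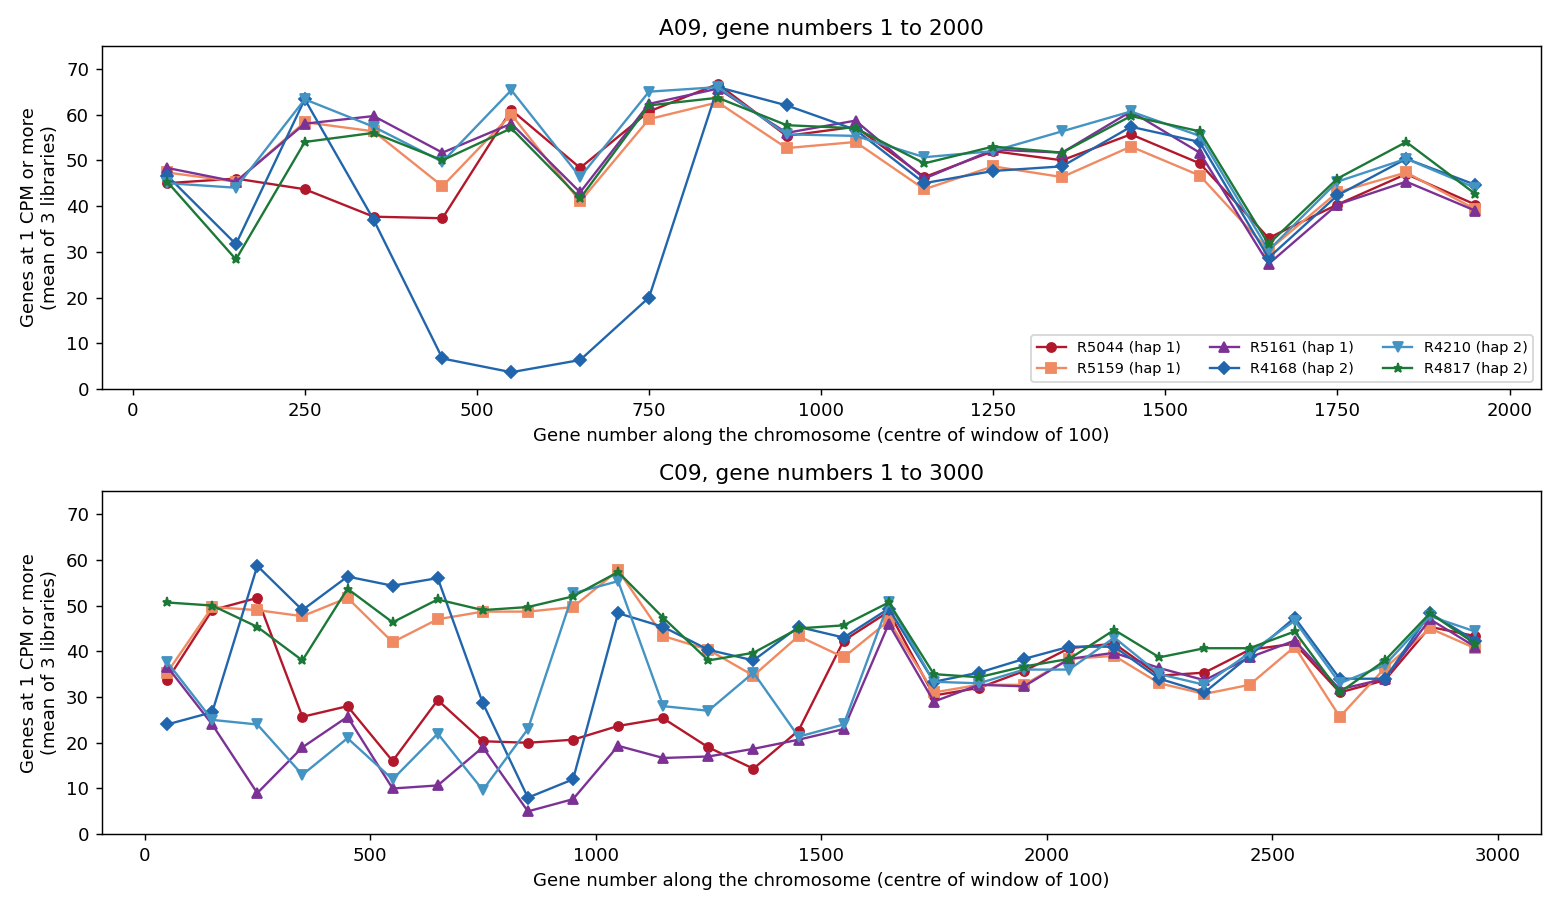
Number of genes at 1 CPM or more per window of 100 gene numbers, mean of 3 libraries, by accession, on A09 gene numbers 1 to 2000 (top) and C09 gene numbers 1 to 3000 (bottom). R4168 is near 0 on A09 from 401 to 700, R5044, R5161 and R4210 are low on most of C09 up to 1500 or 1600, and the 6 lines run together beyond 1600.

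R4168 had the sharpest changes of direction. On A09, gene numbers 401 to 800 summed to 760, 1280 and 1321 CPM in R4168, against 3571 to 7918 CPM in the 15 other libraries. Genes at 1 CPM or more numbered 39, 36 and 35 in R4168, against 188 to 227 in the others, among 423 gene models. On C09, gene numbers 201 to 700 summed to 12951, 17382 and 16999 CPM in R4168, the highest of all accessions, against 5747 to 7016 in R5159 and R4817, 1496 to 2569 in R5044 and 589 to 702 in R5161 and R4210. These stretches, which differ in their bounds, lay on opposite sides: R4168 was lowest on A09 and highest on C09. At gene numbers 201 to 300 it was instead the highest on both chromosomes. It had 3873, 4192 and 4218 CPM there on A09, a window shifted higher by 0.82 log2 units, and 1616, 1535 and 1547 CPM on C09.

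Much of that C09 sum was 1 gene model. The gene model at gene number 497, the most abundant of C09 up to 1600 and singled out after its values were seen, had 4060, 9115 and 8729 CPM in R4168, against 1365, 1849 and 2034 in R5159, 818, 3978 and 2456 in R4817, and at most 129 in R5044, R5161 and R4210. Without it the stretch summed to 8476 ± 359 CPM in R4168, 5007 ± 148 in R5159 and 3982 ± 945 in R4817 (SD, n = 3), so that R4168 stayed highest. In the windows 201 to 700 the median gene of R4168 stood 2.02 to 3.46 log2 units above the median of the other 5 accessions. That baseline includes R5044, R5161 and R4210, whose sums there were low. Against the other high accessions the lead was smaller. The median tested gene of the stretch was 0.89 log2 units higher in R4168 than in R5159 (quartiles 0.28 and 1.67). It was 1.13 higher than in R4817 (quartiles 0.59 and 1.73).

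Further along, R4168 was on the other side on both chromosomes. The sum over C09 gene numbers 801 to 1000 was 89.6 ± 3.44 CPM in R4168, beside 72.2 ± 2.89 in R5161, against 309 ± 13.9 in R5044, 1262 ± 31.5 in R4210, 1818 ± 142 in R4817 and 2006 ± 129 in R5159. A09 gene numbers 801 to 1000 summed to 4486 ± 151 CPM in R4168, level with 4482 ± 55.7 in R5161, against 4009 ± 25.7 in R5044, 3826 ± 29.7 in R4210, 2354 ± 84.3 in R5159 and 2269 ± 18.3 in R4817. Within both chromosomes R4168 therefore had shifts in both directions, 3 windows higher and 8 lower on A09, and 9 higher and 4 lower on C09. The higher A09 windows were 201 to 300, 901 to 1000 and, far from these, 6901 to 7000. At 6901 to 7000 R4168 had 982 CPM, below 1143 in R5161 (means). The baseline there included R5044 and R5159, at 56 and 55 CPM.

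Summed over A09 gene numbers 501 to 1400, the accessions that were low on C09 were high, though not in every window. Over A09 gene numbers 501 to 1400, R5044 summed to 17548 ± 339 CPM, R5161 to 18167 ± 123 and R4210 to 15159 ± 567, against 10101 ± 194 in R5159, 9272 ± 74.8 in R4168 and 9008 ± 48.2 in R4817 (SD, n = 3). The 2 sets did not overlap in this sum, whose bounds were drawn after the data were seen. Over 801 to 1400 alone, R4168 summed to 8179 CPM. That is nearer to 9440 in R4210 than to 5975 in R5159 or 6100 in R4817 (means). In some windows R4210 was level with the low set. At 901 to 1000 it had 877, 963 and 1020 CPM, against 775 to 972 in R5159 and 837 to 932 in R4817. At 1201 to 1300 it had 988, 940 and 992 CPM, against 930 to 953 in R5159 and 979 to 1091 in R4817. The median tested gene was 0.94 log2 units higher in R5161 than in R5159, with quartiles of 0.29 and 1.42, and 0.79 higher in R5044 than in R5159, with quartiles of 0.32 and 1.25. Genes at 1 CPM or more numbered 498 in R5044, 494 in R5161 and 513 in R4210, against 468 in R5159 and 493 in R4817, so that the sums of these 5 accessions differed over nearly the same number of expressed genes. In R4168 they numbered 356.

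Set together, the beginnings of both chromosomes differed far more than their sum. A09 gene numbers 1 to 1500 and C09 gene numbers 1 to 1600, bounds drawn after the data were seen, hold 1591 and 1714 gene models. The A share of their counts was 81.4, 69.5 and 75.5% in R5044, 49.2, 47.0 and 48.8% in R5159 and 88.2, 89.9 and 89.2% in R5161, and 44.9, 40.5 and 41.2% in R4168, 74.8, 74.3 and 74.5% in R4210 and 46.8, 43.3 and 44.8% in R4817. Again 3 accessions lay at 69.5% or above and 3 at 49.2% or below. Without the gene model at 497, the C09 sums differed 4.79-fold between the highest and the lowest accession and the A09 sums 1.83-fold, while the total ran from 31115 to 33472 CPM, a ratio of 1.08. With that gene model the total ran from 31160 to 40042 CPM, a ratio of 1.29, with R4168 at the top.

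Outside these beginnings the accessions had nearly 1 balance. With both left out, the A share was 76.9% ± 0.240 in R5044, 78.1% ± 0.292 in R5159, 78.3% ± 0.624 in R5161, 77.2% ± 0.534 in R4168, 76.6% ± 0.496 in R4210 and 78.9% ± 1.29 in R4817 (SD, n = 3). The range was 76.6 to 78.9%, against 63.4 to 81.7% with them. The haplotype means were 77.8% ± 0.759 in haplotype 1 and 77.6% ± 1.20 in haplotype 2.

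**Figure D4:**
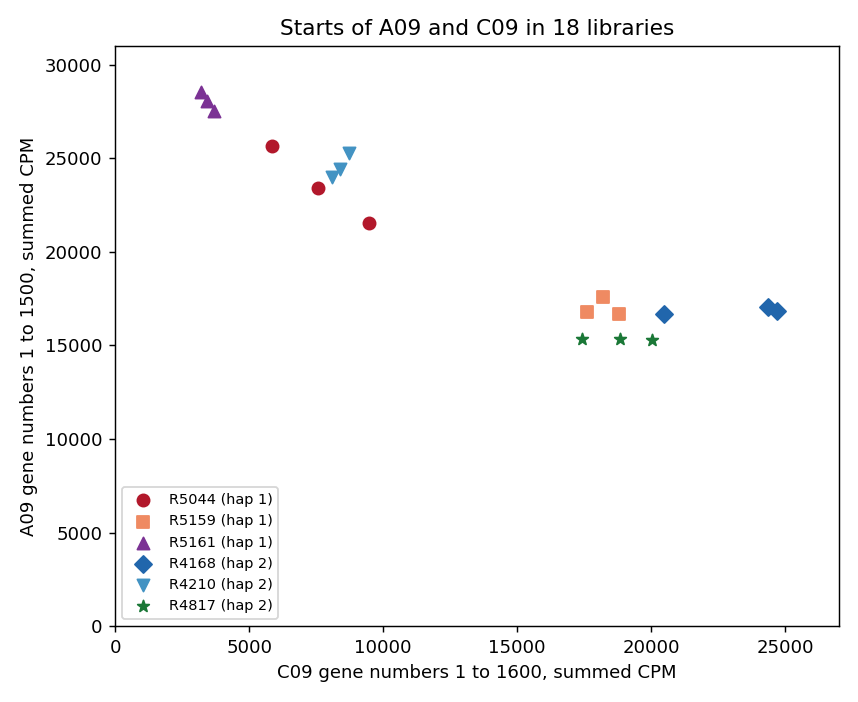
Summed CPM of A09 gene numbers 1 to 1500 (vertical axis) against summed CPM of C09 gene numbers 1 to 1600 (horizontal axis), 1 point per library. R5161, R5044 and R4210 lie at the upper left and R5159, R4817 and R4168 at the lower right, and the 3 libraries of R5044 spread along the line between A09 and C09.

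Both directions of shift within 1 chromosome occurred in R5044, R5159 and R4168 on A09 and in R5044, R4168 and R4210 on C09. Over the 2 chromosomes together every accession had both. With a threshold of 1 in place of 0.5, no accession had both directions on A09, R5044, R4168 and R4210 still had both on C09, and R4817 had no lower window on either chromosome. R5161 had 9 windows higher on A09 and 15 lower on C09, without exception on either chromosome. R4817 was its counterpart, with 3 windows lower on A09 and 10 higher on C09. R4210 had 6 windows higher on A09, and 2 higher and 10 lower on C09. R5159 had 1 higher and 4 lower on A09 and 12 higher on C09, and R5044 had 6 higher and 1 lower on A09 and 2 higher and 10 lower on C09.

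In 2 accessions the libraries themselves differed at the beginnings. In R5044, A09 gene numbers 201 to 400 summed to 4382, 924 and 2689 CPM in libraries 1, 2 and 3, with 117, 21 and 106 genes at 1 CPM or more, while C09 gene numbers 101 to 300 summed to 2112, 4286 and 3208 CPM. Library 2 was thus the lowest on A09 and the highest on C09, and library 3 lay between the others on both. Over A09 gene numbers 501 to 1400 the sums of the 3 libraries of R5044 were close, at 17548 ± 339 CPM, although single windows such as 601 to 700 still differed (1995, 2929 and 2301 CPM).

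In R4817, A09 gene numbers 101 to 200 summed to 813, 83.0 and 406 CPM, with 43, 8 and 34 genes at 1 CPM or more, and C09 gene numbers 1 to 100 to 1204, 3169 and 2242 CPM. The sides changed further along: C09 gene numbers 201 to 400 summed to 2045, 609 and 1318 CPM and A09 gene numbers 401 to 500 to 685, 1403 and 1045 CPM. On each chromosome library 2 of R4817 was thus the lowest in one window run and the highest in the other, with library 3 between. The sides were not opposite throughout: at 1 to 100 library 2 was also the highest on A09 (808, 1700 and 1264 CPM). At 401 to 500 library 2 also had the highest sum on C09 (2246, 5085 and 3735 CPM). Of that sum, the gene model at 497 alone had 818, 3978 and 2456 CPM. Genes at 1 CPM or more numbered 56, 50 and 55 in this C09 window, so by that count library 2 was the lowest. Library 3 of both accessions was also the one closest to a mixture of the other two over all genes, so in these windows the SD of R5044 and of R4817 describes unlike libraries. At A09 201 to 400 no other accession had such a spread. The sums there ran from 3286 to 3519 CPM in R5159, 4684 to 5313 in R5161, 4669 to 5022 in R4168 and 4369 to 4523 in R4210. In other windows named here, libraries of other accessions differed too. C09 401 to 500 had 6865, 11514 and 11154 CPM in R4168, and A09 1 to 100 had 832, 523 and 695 CPM in R5159.

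**Figure D5:**
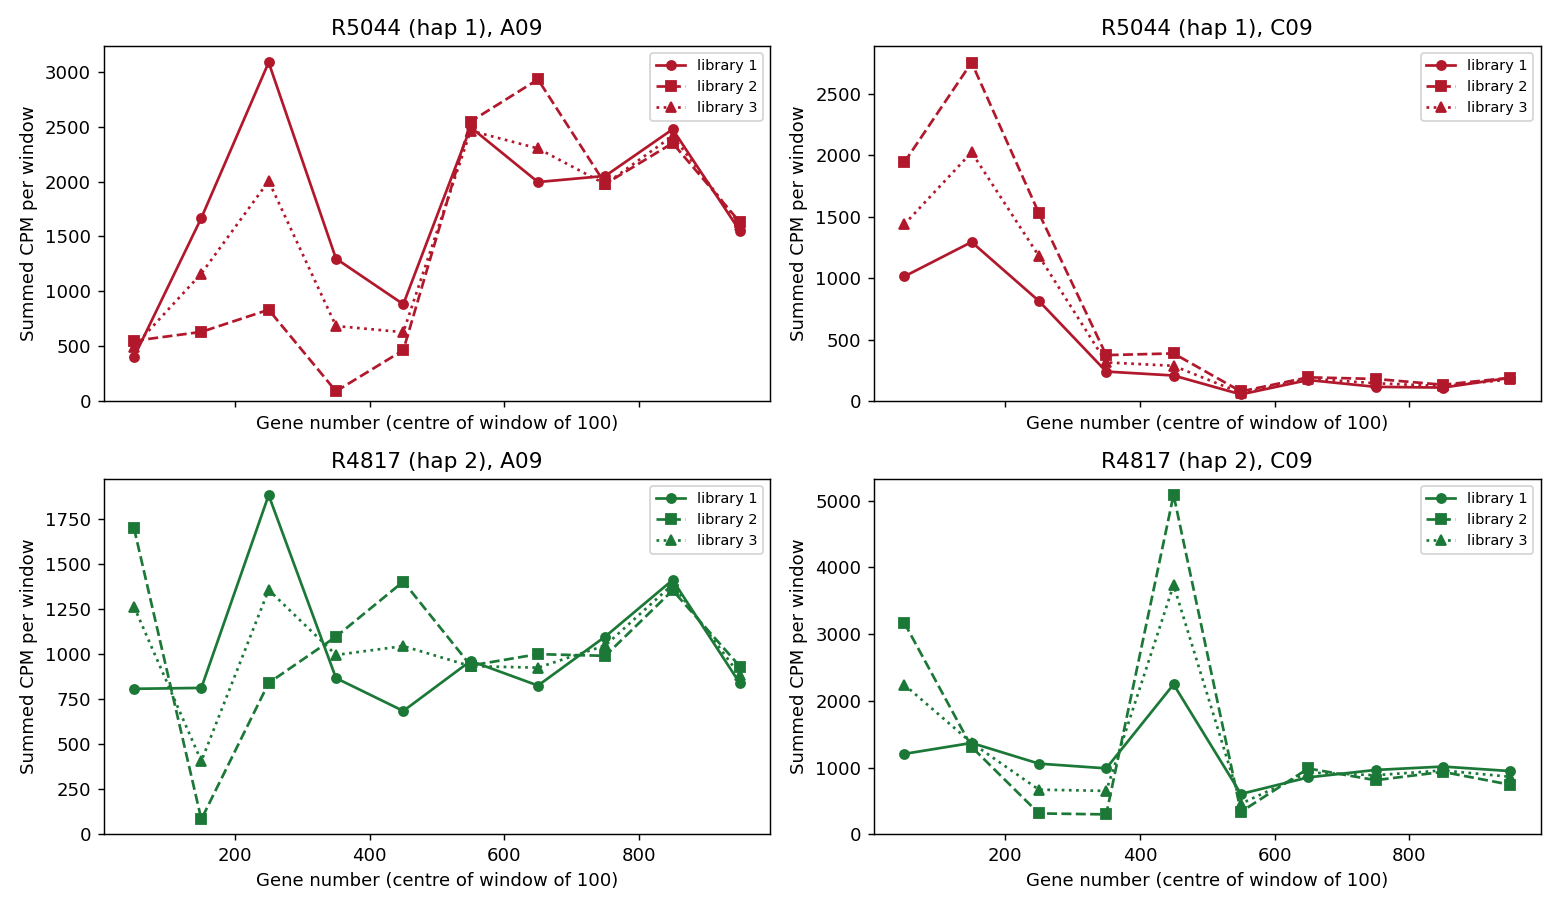
Summed CPM per window of 100 gene numbers in the 3 libraries of R5044 (top) and R4817 (bottom) on A09 (left) and C09 (right), gene numbers 1 to 1000. In R5044 library 2 is below library 1 on A09 from 101 to 500 and above it on C09 from 1 to 400, while in R4817 the side changes from window to window on both chromosomes; library 3 lies between libraries 1 and 2 in most of these windows.

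Near its end A09 had 3 further runs. Gene numbers 6501 to 6700 summed to 1071, 1262 and 1199 CPM in R4168, against 2476 to 3827 CPM in the 15 other libraries, with 55, 51 and 50 genes at 1 CPM or more in R4168 and 97 to 115 in the others. C08 gene numbers 5101 to 5349, the end of a chromosome that is no member, summed to 5928 ± 506 CPM in R4168 (n = 3), against 2810 to 3731 CPM in the means of the other accessions. Over all chromosomes 6 windows were shifted higher in R4168 with no other accession shifted, and 3 of them were these on C08. The others began at gene numbers 101 and 201 of A03 and 5501 of C02, and were raised by 0.551 to 0.889 log2 units. The C08 windows, raised by 0.555 to 0.899, were picked after the data were seen. Whether they are related to this run of A09 was not tested. The neighbouring A09 genes 6701 to 6900 were level, at 1493 ± 140 CPM in R4168 and 1304 to 1708 CPM in the means of the others.

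The other 2 runs set R5044 and R5159 apart from the rest. Gene numbers 6901 to 7000 summed to 52, 56 and 59 CPM in R5044 and 53, 54 and 58 in R5159, with 7 to 9 genes at 1 CPM or more, against 1128 to 1155 CPM in R5161, 956 to 1024 in R4168, 902 to 954 in R4210 and 801 to 836 in R4817, with 44 to 49 genes. The last genes of the chromosome, 7101 to 7218, together had 2476 ± 24.5 CPM in R5044 and 2494 ± 148 in R5159, against 1368 ± 60.1 in R5161, 1156 ± 46.9 in R4168, 1154 ± 74.7 in R4210 and 1111 ± 11.8 in R4817. The median tested gene there was 1.03, 1.03 and 1.08 log2 units higher in R5044 than in R4168, R4210 and R4817, and 0.71 higher than in R5161. R5044 and R5159 thus shared a depleted run and a run of higher levels close to each other at the end of A09, although they differed at the beginning of the chromosome.

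Genes that were silent in some accessions and expressed in all others were frequent on C09. On A09 their share was less far above that of all genes, and most were silent in R4168 alone. A gene was taken as such when at least 1 accession had at most 3 counts over its 3 libraries and every other accession had a mean of at least 1 CPM, a rule added after the data were seen. On C09 211 of 1523 genes at 1 CPM or more in an accession met it (13.9%) and on A09 264 of 3710 (7.12%), against 5.17% of all genes. With 0 counts in place of 3 allowed, C09 had 121 and A09 177. On A09 150 of the 264 were silent in R4168 alone, against 249 of 2626 over all genes. Of the 150, 120 had gene numbers of 1500 or below. A further 20 were silent in R5044 and R5159 together.

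On C09 177 of the 211 lay at gene number 1600 or below. R5161 was silent for 156 of the 211, R4210 for 115, R5044 for 98, R4168 for 75, R5159 for 28 and R4817 for 21. Over all genes the numbers in the same order were 1100, 987, 1208, 1020, 1073 and 516 of 2626. By share, R5161 and R4210 thus lay above all genes, R5044 and R4168 near them, and R5159 and R4817 below. The most frequent sets were R5161 alone with 34 genes (178 of the 2626 over all genes), R5044, R5161 and R4210 together with 33, and R5044 and R5161 with 27. All 34 of the genes silent in R5161 alone, and all 33 and 27 of the other sets, had gene numbers of 1500 or below. Only 1 of the 211, at gene number 2210, was silent in all 3 haplotype 1 accessions and expressed in all 3 of haplotype 2.

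Calls of single genes show only where 1 accession stood apart from all others. A gene was called for an accession when it differed in 1 direction from each of the other 5. The largest of the 5 pairwise p-values of edgeR's quasi-likelihood test was used, adjusted over all genes. A shift that accessions share at about the same level cannot be called by this rule. A share near the background therefore does not go against the window shifts. R4168 was lower than every other accession for 286 of 4407 A09 genes (6.49%, background 1.34%) and higher for 12 (0.272%, background 0.451%). On C09 it was higher for 26 of 1683 genes (1.54%) and lower for 24 (1.43%), so that its excess over the background was one of higher genes there. R5161 was lower for 121 C09 genes (7.19%, background 1.64%) and higher for 2 (background 0.459%), and on A09 higher for 41 (0.930%) and lower for 42 (0.953%).

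R4210 was lower for 72 C09 genes (4.28%, background 1.84%) and higher for 2 (background 0.556%). R5159 was higher for 15 C09 genes (0.891%, background 0.258%) and lower for 6 (0.357%, background 1.21%). R5044 was lower for 28 C09 genes (1.66%, background 1.71%) and higher for 5 (0.297%, background 0.44%), near the background in both directions. R4817 had 14 calls on A09 and 10 on C09 (0.318 and 0.594%, background 0.602%). For R4817 the 24 calls became 13 without its library 3 and 7 without library 3 of both R5044 and R4817, and without these 2 libraries the 96 calls of R5044 became 63 and the 85 of R5159 became 47.

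Pairwise contrasts from the same fit, 15 in all and each adjusted over all genes, showed which accessions differed on C09 beyond the background. Within haplotype 1, R5044 and R5159 differed for 733 of 1683 C09 genes (43.6%) against 17% of all genes, R5044 and R5161 for 476 (28.3%) against 19.7%, and R5159 and R5161 for 929 (55.2%) against 20.9%. Within haplotype 2, R4168 and R4210 differed for 754 (44.8%) against 20.7%, R4168 and R4817 for 542 (32.2%) against 19.9%, and R4210 and R4817 for 660 (39.2%) against 16.9%. All 6 shares within a haplotype were thus above the background, and the lowest was that of R5044 and R5161, both low on C09.

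Between haplotypes the picture was mixed. R5044 differed from R4168 for 59.1% of the C09 genes (background 41.7%), from R4210 for 60.7% (49.7%) and from R4817 for 60.8% (41.9%). R5161 differed from R4168 for 63.9% (background 46.1%), from R4210 for 57.5% (52.3%) and from R4817 for 70.4% (46.7%). R5159 differed from R4210 for 63.3% (background 53.2%) and from R4168 for 45.5% (43.8%). R5159 and R4817, of different haplotypes but both high on C09, differed for 639 genes (38.0%) against 45%, the only pair below the background.

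The C09 members beyond 1600 were level. The 731 tested and the untested genes at 1601 to 3000 together had 15694 ± 76.8 CPM in R5044, 14583 ± 96.4 in R5159, 14657 ± 821 in R5161, 14071 ± 327 in R4168, 15205 ± 90.9 in R4210 and 13707 ± 964 in R4817 (SD, n = 3). The median tested gene differed by at most 0.0822 log2 units between any pair of accessions. At the border of the rule, the last window inside, 2901 to 3000, summed to 752 to 879 CPM in the 18 libraries, and the first outside, 3001 to 3100, to 659 to 956 CPM. The middle of A09, gene numbers 1401 to 6500, together had 45165 ± 927 CPM in R5044, 44936 ± 826 in R5159, 47206 ± 805 in R5161, 43448 ± 207 in R4168, 43885 ± 1055 in R4210 and 44832 ± 518 in R4817.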

How the data were processed

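Poly(A)-selected RNA-seq libraries of shoot apices were counted per gene model by the authors, and the deposited values are raw counts as whole numbers, not normalized. The submitters' processing notes name HISAT2 2.2.1 (an aligner) and featureCounts (a read counter). Which genome build, strand setting and rule for multi-mapping reads applied is not given in the sources used here. Near-identical A and C copies could exchange reads, in every window given. Columns were assigned by name, and 0 columns belonged to other samples. None of the 123214 entries of the RefSeq name table matched an identifier (0 matches).

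From the counts, CPM were computed on total counts, and genes were tested in R 4.3.3 with edgeR 4.0.16 (TMM, filterByExpr, quasi-likelihood test, adjusted p under 0.05 over all genes); DESeq2 1.42.0 and limma 3.58.1 were alternatives. Haplotypes were compared over 3 against 3 accession sums, and as the contrast of accession means over 18 libraries. Windows and sums used Python 3.11.15, numpy 2.4.6, pandas 2.3.3 and scipy 1.17.1, and figures matplotlib 3.10.9. On simulated counts with 200 genes changed 4-fold, the accession-level test found 92.0% of them, and at 2-fold 4.5%. The contrast of means found all 200 at both sizes, and the rule for R5161 beyond each of the other 5 found 81.5% at 2-fold. The contrast and the rule were simulated with a smaller spread, between libraries only. No differences between accessions that share a haplotype were simulated for them. Their shares therefore cannot be compared with that of the accession-level test. The window rule found all 20 simulated shifts, which were 2-fold and in R5161 only. That run does not cover stretches where several accessions are high and the others low.

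Same-numbered libraries of different accessions mostly did not deviate together (45 pairs, r from -0.161 to 0.256, 4 over 0.1), so the replicate numbers were not used as pairs. The largest values were those of R5044 with R5161, 0.256 for library 1 and 0.229 for library 2, against -0.017 for library 3. The named genes are the 2 highest and 2 lowest log2 fold changes among accession-level calls with a mean of at least 1 CPM. The members, windows and lists were chosen with earlier results of these data known, and the bounds of the stretches, the rules for depleted windows and silent genes and the runs without library 3 were set after the data were seen.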

Additional observations from a re-analysis of the deposited data

How the results depend on the processing

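Of 359 recomputed values for 22 results, 325 kept their direction and their side of the threshold or stayed within 1.5 times of the count, and 0 reversed. Only the named genes and the A share and summed CPM could reverse, as counts have no direction. The A share and summed CPM were judged by direction alone. The haplotype calls at accession level (592) ran from 21 to 350 with an accession left out, were 563 without library 3 of R5044 and R4817, and were 1729 with DESeq2. Shifted A09 windows (41) were 23 with a pseudocount of 1, 10 with a threshold of 1 and 19 in windows of 200 gene numbers, of which there are fewer; C09 windows (74) were 41 in windows of 200. Set against the mean of the 5 others, the accession calls were 2312 for R5044, 2865 for R5159 and 2732 for R5161. They were 2619 for R4168, 2965 for R4210 and 2827 for R4817. This looser rule does not require a difference from each of the 5, and what else raised the counts was not tested. Against each of the 5 and with libraries left out, the calls ran from 63 to 103 in R5044, 47 to 82 in R5159 and 156 to 217 in R5161. In R4168 they ran from 273 to 357, in R4210 from 93 to 160 and in R4817 from 7 to 28 (13 without its library 3). Silent genes on C09 (211) were 121 when 0 counts were required, by construction of the stricter rule.

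Fitted with a replicate block, the contrast of accession means gave 3686 calls in place of 3729, the F test 4517 in place of 4610, and the accession calls were 86, 75, 191, 327, 117 and 18 for R5044, R5159, R5161, R4168, R4210 and R4817; the pairing changed no count by over 1.5 times. Of the named genes, BnaA09T0629600ZS passed under all 10 alternatives, with adjusted p up to 0.0482. BnaA09T0634800ZS, BnaA09T0276900ZS and BnaA09T0438800ZS missed the threshold in 5, 2 and 5 of 10, each with 1 accession left out, with adjusted p up to 0.061, 0.0627 and 0.113. The haplotype difference of the A share stayed between 4.76 and 6.83 percentage points, with exact p from 0.2 to 0.6. Depth limits silence to at most 3 counts over 3 libraries, which does not show absence.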
